A study of Mus musculus with 6 samples.

Results

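The acyl-CoA dehydrogenases are flavoproteins, most of them of the mitochondrial matrix, and 10 of their genes were followed here among the 17558 genes of the deposited table: Acads, Acadm, Acadl, Acadvl, Ivd, Acadsb, Acad8, Acad9, Acad10 and Acad11. The members were chosen by gene family, with the counts and TPM values of these same libraries, summed over the transcripts of each gene, already in view. For that reason the gene levels of the 10 members and their differences between groups are a description, given with standard errors and without p-values. A member said to be called passed the threshold set out below. Such a call, also one kept under alternative analyses, is part of the description and lends a difference no independent support. All 10 were detected in every library and passed the filter on low counts, and Gcdh and Acad12, further genes of the family, are given separately.

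RNA was sequenced from C2C12, an immortalized mouse myoblast line whose cells fuse into myotubes once growth serum is withdrawn. All cells were wild type in origin, stably carried a short hairpin RNA, and were collected 48 h after the switch from fetal bovine serum to low horse serum with insulin, transferrin and selenium. The 3 groups of 2 libraries carried a scrambled hairpin (shScr, genotype label WT), a hairpin against the Pkm1 isoform of pyruvate kinase (shPkm1) or a hairpin against its Pkm2 isoform (shPkm2), in a series about the parts of Pkm1 and Pkm2 in myoblast growth and differentiation. The labels do not say whether the libraries of a group came from separate cultures or clones, so p-values measure the spread between these libraries, which may be technical.

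The labels were checked first on the target. The Pkm1 transcript stood at 545.8 and 588.8 TPM (a level per transcript length and library) in shScr, at 242.7 and 218.2 TPM in shPkm1 and at 254.1 and 254.2 TPM in the shPkm2-labelled libraries. The Pkm2 transcript stood at 1073 and 1517 TPM in shScr, at 1278 and 1379 TPM in shPkm1 and at 2700 and 2630 TPM in the shPkm2-labelled libraries. The Pkm2 transcript was thus not lower in the libraries that carry its hairpin by label, and every direction given for them below is that of the shPkm2-labelled libraries. Libraries held 18216896 to 19796036 estimated counts, replicates correlated across genes at r = 0.988 or more in log2 CPM (counts scaled to library size), and libraries of different groups at 0.860 to 0.921. The control libraries stood further apart than the others: chi-square per degree of freedom between replicates was 31 in shScr, 6.01 in shPkm1 and 6.67 in the shPkm2-labelled libraries, and among muscle markers Actn2 was at 96.41 and 23.29 TPM and Ckm at 2284 and 1451 TPM in shScr. Without the first or the second shScr library the members called, counted below, were 7 and 6 in shPkm1 and 7 and 7 in the shPkm2-labelled libraries against shScr.

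An acyl-CoA dehydrogenase removes hydrogen from the carbon chain next to the CoA thioester of a fatty acid or of a breakdown product of an amino acid, and passes the electrons through its flavin to the electron transfer flavoprotein and on to the respiratory chain. Acads, Acadm, Acadl and Acadvl open each turn of beta-oxidation for straight chains of increasing length. Ivd, Acadsb and Acad8 act in the breakdown of leucine, isoleucine and valine, Acad9 is best known as an assembly factor of respiratory complex I, and Acad10 and Acad11 are less well described members. Skeletal muscle takes much of its energy at rest from fatty acids, and myoblasts raise mitochondrial oxidation as they differentiate.

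The members lie at scattered places of the mouse genome (GRCm38.p6, RefSeq gene models). Acads lies on chr5:115110299-115119346, Acadm on chr3:153922353-153944643, Acadl on chr1:66830839-66863309 and Acadvl on chr11:70010183-70015428, all on the minus strand. Ivd lies on chr2:118861959-118882909 and Acadsb on chr7:131410601-131446211, both on the plus strand, and Acad8 on chr9:26974138-26999571 on the minus strand. Acad9 lies on chr3:36065979-36092857 and Acad11 on chr9:104063724-104127656 on the plus strand, and Acad10 on chr5:121621026-121660603 on the minus strand. Gene spans of 4 members overlap another annotated gene: Acadl overlaps the pseudogene Gm15793 and the small nuclear RNA gene Gm27934, Acadvl overlaps Mir324, Acad10 overlaps Brap and Acad11 overlaps Ackr4. Whether reads were counted by strand is not given in the sources used here, so reads of such overlaps cannot be told apart.

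The promoters of Acadl, Acadm, Acadvl and Ivd are shown because these are the genes on which the results turn: of the 10 members, Acadl fell most in both hairpin groups and Ivd came next in shPkm1, Acadm rose in the shPkm2-labelled libraries, and Acadvl fell there and is the other of these promoters that holds the hexamer. Each line gives the bases before the RefSeq transcription start on the gene's strand, 5′ to 3′, without annotated exon bases, from chr1:66863310-66863559, chr3:153944644-153944893, chr11:70015429-70015678 and chr2:118861744-118861953 of GRCm38.p6. Capitals mark the letters AGGTCA, the hexamer bound by many nuclear receptors, on either strand (TGACCT is the same hexamer read on the other strand).
Acadl: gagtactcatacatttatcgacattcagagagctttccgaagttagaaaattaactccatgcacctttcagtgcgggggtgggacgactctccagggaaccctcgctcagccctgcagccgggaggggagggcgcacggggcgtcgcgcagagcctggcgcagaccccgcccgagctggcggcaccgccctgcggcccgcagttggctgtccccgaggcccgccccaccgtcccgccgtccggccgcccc
Acadm: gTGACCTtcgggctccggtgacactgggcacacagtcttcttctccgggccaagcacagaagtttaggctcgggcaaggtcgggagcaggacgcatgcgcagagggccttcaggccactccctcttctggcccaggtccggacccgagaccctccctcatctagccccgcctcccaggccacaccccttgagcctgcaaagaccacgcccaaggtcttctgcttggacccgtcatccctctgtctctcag
Acadvl: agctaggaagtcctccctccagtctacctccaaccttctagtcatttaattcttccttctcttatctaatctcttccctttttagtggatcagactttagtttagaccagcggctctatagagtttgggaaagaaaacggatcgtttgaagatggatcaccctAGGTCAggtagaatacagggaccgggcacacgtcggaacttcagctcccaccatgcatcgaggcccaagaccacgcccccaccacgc
Ivd: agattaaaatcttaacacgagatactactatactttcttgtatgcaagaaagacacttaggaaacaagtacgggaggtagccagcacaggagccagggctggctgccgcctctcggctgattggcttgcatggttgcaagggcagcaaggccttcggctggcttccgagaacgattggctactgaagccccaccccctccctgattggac

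RefSeq promoters were found for 9 members, all but Acad9. In the 250 bases before the start, AGGTCA on either strand was present in Acadm, beginning 249 bases before the start, and in Acadvl, 87 bases before it, and 14.0% of 32817 promoters of the same length hold it. The same hexamer repeated head to tail after a spacer of 1 base, the classical element of PPAR and RXR (direct repeat 1), was found in 0 of the 9 and in 0.0335% of all promoters, and TCAAGGTCA, the extended form bound by estrogen-related receptors, in 0 of the 9 and in 0.387%. Both longer motifs contain AGGTCA. The E-box CAGCTG, a sequence bound by MyoD, was found in Acadsb alone among the 9 and in 13.0% of all promoters. It begins 128 bases before the start, where the window holds exon sequence of Ikzf5, outside the exon-free 79 bases. A match or its absence describes only the letters in these windows.

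**Figure D1:**
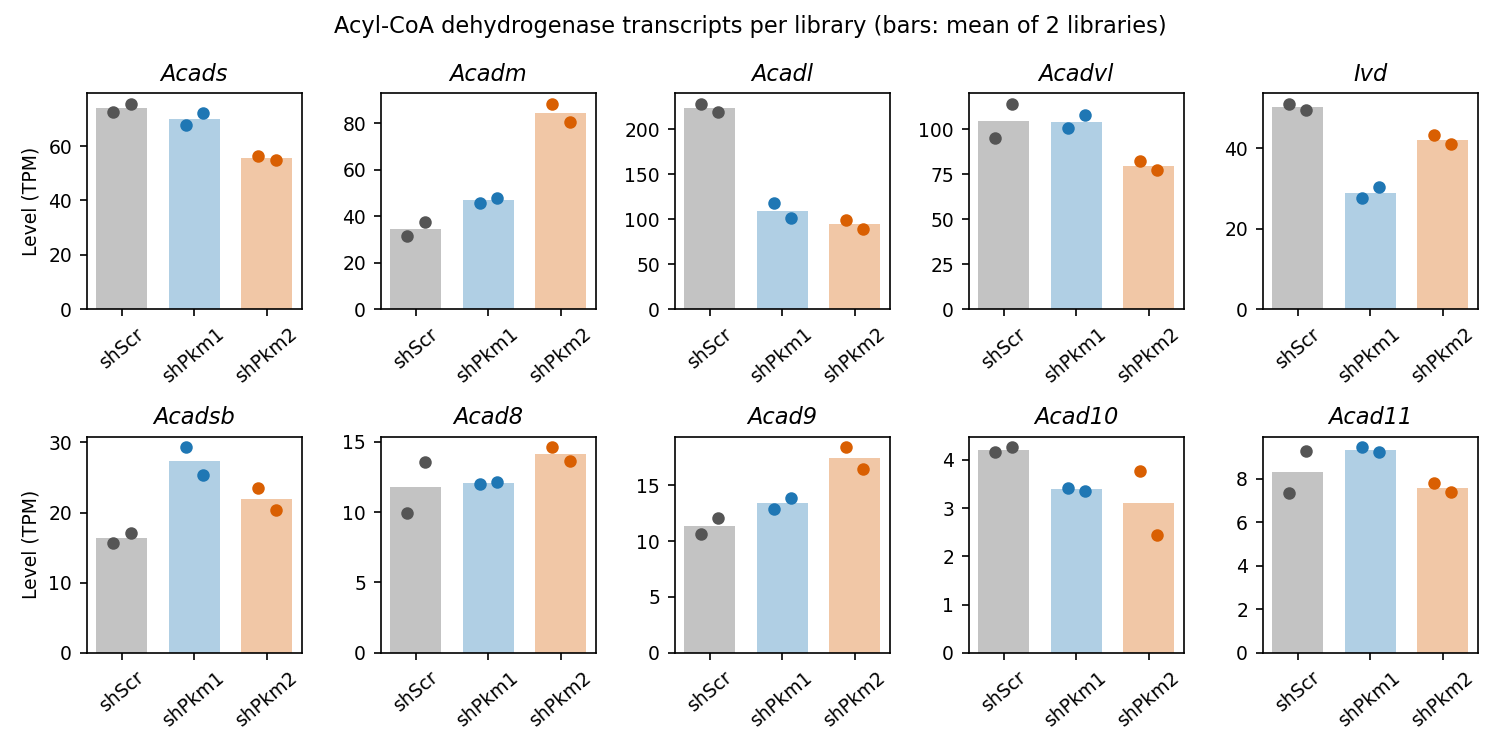
Level of each of the 10 acyl-CoA dehydrogenase genes in TPM (vertical axes from 0, a scale of its own in each panel) in the 2 libraries of each group (points) with their mean (bars). Acadl stands at 218.9 TPM or more in shScr and at 117.9 TPM or less elsewhere, while Acadm is at 80.6 TPM or more in the shPkm2-labelled libraries and at 47.74 TPM or less in the others.

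In the control cells Acadl, the dehydrogenase of long straight and some branched chains, was the most abundant member by a wide margin. Levels per length in shScr followed the order Acadl, Acadvl, Acads, Ivd, Acadm, Acadsb, Acad8, Acad9, Acad11 and Acad10, from 223.8 ± 6.9 TPM (SD, n = 2) for Acadl to 4.21 ± 0.07 TPM (SD, n = 2) for Acad10. Neighbours in this order did not overlap, except Acad8 (9.96 and 13.57 TPM) and Acad9 (10.61 and 12.09 TPM). In shPkm1 Acadl (117.9 and 101 TPM) overlapped Acadvl (100.5 and 107.7 TPM), and Ivd overlapped Acadsb. In the shPkm2-labelled libraries Acadm had moved up to second place behind Acadl and overlapped Acadvl.

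Fold changes were taken from estimated counts scaled with the TMM factors of edgeR (trimmed mean of M values), with which the median of all tested genes stays near 0, and a gene is said to be called where the adjusted p of edgeR's quasi-likelihood test was under 0.05. Scaling to library totals instead moved the median of all genes by 0.195 on the log2 scale in shPkm1 against shScr, by 0.325 in shPkm2 against shScr and by 0.13 in shPkm2 against shPkm1. On log2(TPM + 1) the shifts were 0.314, 0.357 and 0.056, and the share of calls that were higher went from 50.3% to 78.1%, from 49.8% to 75.7% and from 48.4% to 53.8%. TPM levels of the hairpin libraries therefore read higher against shScr than the fold changes do, and directions that depend on this are named with the gene.

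Against shScr, 6 of the 10 members were called in shPkm1, 1 higher and 5 lower, where 63.1% of 12643 tested genes were called (31.8% higher and 31.4% lower). The count fell to 3 without the first shPkm1 library. In the shPkm2-labelled libraries, 7 were called against shScr, 1 higher and 6 lower, where 68.0% of all genes were called (33.9% and 34.2%). Between the hairpin groups 7 were called, 3 higher and 4 lower in the shPkm2-labelled libraries, where 53.0% of all genes were called (25.7% and 27.3%). This count was 4 without the first shPkm1 library, without the second shPkm2 library and on log2(TPM + 1). The median log2 fold change of the members was -0.34 in shPkm1 and -0.66 in the shPkm2-labelled libraries against shScr, beside 0 and 0.007 for all tested genes, and the 2 comparisons share their control libraries. Both the counts and the medians depended on scaling, which moved all tested genes as well. In shPkm1 against shScr the calls were 1 higher and 3 lower with library totals and 2 higher and 2 lower on log2(TPM + 1), with medians of -0.14 and 0.02. Calls of the shPkm2-labelled libraries against shScr were 3 higher and 4 lower with library totals and 3 higher and 3 lower on log2(TPM + 1), with medians of -0.33 and -0.18. On the same scales the medians of all tested genes were 0.194 and 0.314 in shPkm1 and 0.332 and 0.364 in the shPkm2-labelled libraries, above those of the members. Of the calls over all genes 65.8% and 78.1% were then higher in shPkm1, and 69.3% and 75.7% in the shPkm2-labelled libraries.

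**Figure D2:**
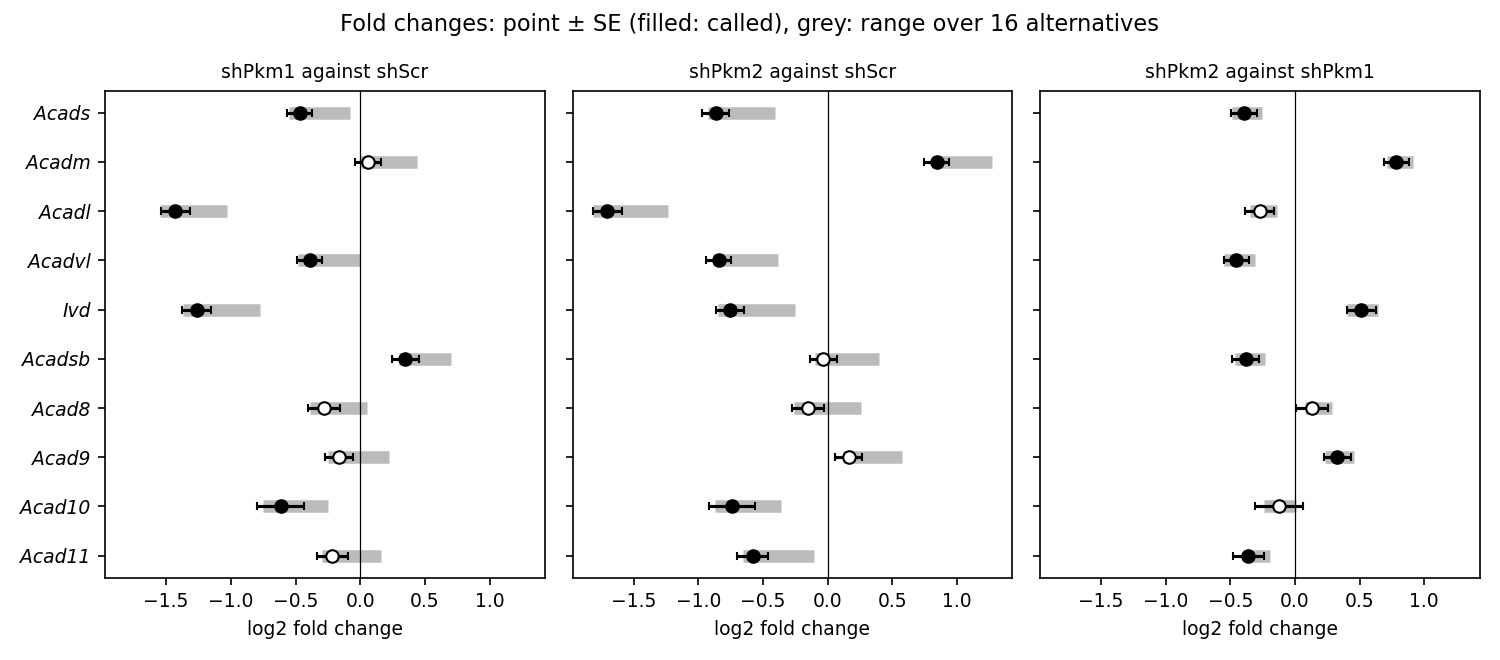
Log2 fold change of each member (horizontal axes, TMM-scaled counts) in the 3 comparisons, as points with standard errors (filled where called, open where not) over grey bars that span the values of 16 alternative analyses. Acadl and Ivd lie left of 0 in all analyses of both hairpin groups against shScr and Acadm right of 0 in the shPkm2-labelled libraries, while the grey bars of Acad8, Acad9, Acad11, Acadm and Acadsb cross 0 in 1 or more comparisons against shScr and that of Acad10 crosses it between the hairpin groups.

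Acadl was lower in both hairpin groups. Its level was 228.6 and 218.9 TPM in shScr, 117.9 and 101 TPM in shPkm1, and 99.66 and 89.56 TPM in the shPkm2-labelled libraries. No hairpin library reached the lower control, and the hairpin groups lay close to each other without overlapping. The fitted fall was 2.69-fold in shPkm1 (log2 fold change -1.43 ± 0.11, SE) and 3.26-fold in the shPkm2-labelled libraries (-1.70 ± 0.11, SE), and it was called under all 16 alternatives, with values from -1.54 to -1.03 and from -1.82 to -1.24. Between the hairpin groups the difference was -0.27 ± 0.11 (SE), which was not called, and it was called under 8 of the 16 alternatives.

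Acadm, which handles chains of medium length and is a standard target gene of PPAR signalling, went the other way in the shPkm2-labelled libraries. It stood at 31.49 and 37.39 TPM in shScr, at 45.91 and 47.74 TPM in shPkm1 and at 88.43 and 80.6 TPM in the shPkm2-labelled libraries. The last group lay far above the other two in both libraries. The fitted rise over shScr was 1.79-fold (log2 fold change 0.84 ± 0.10, SE), and the rise over shPkm1 was 1.72-fold (0.78 ± 0.10, SE), each called under all 16 alternatives. For shPkm1 against shScr the value was 0.06 ± 0.10 (SE) and not called; it was called on log2(TPM + 1), where it was 0.44, and on log2(FPKM + 0.1), where it was 0.25, and turned to -0.005 without the second shPkm1 library.

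Acadvl, the membrane-bound enzyme for very long chains, and Acads, the enzyme for short chains, stepped down together. Acadvl had 2473 and 2950 estimated counts in shScr, 2173 and 2590 in shPkm1 and 1922 and 1884 in the shPkm2-labelled libraries. Acads had 1606 and 1657 estimated counts in shScr, 1248 and 1477 in shPkm1 and 1123 and 1139 in the shPkm2-labelled libraries. For both genes the shPkm2-labelled libraries were the lowest, and the counts of Acadvl, which are not scaled for depth, overlapped between shScr and shPkm1. Its log2 CPM with TMM did not, at 7.29 and 7.38 in shScr and 6.86 and 7.03 in shPkm1. In the shPkm2-labelled libraries the log2 fold change against shScr was -0.84 ± 0.10 (SE) for Acadvl and -0.87 ± 0.10 (SE) for Acads, called under all 16 alternatives, and it was -0.45 ± 0.10 and -0.40 ± 0.10 (SE) against shPkm1. In shPkm1 the values against shScr were smaller, -0.39 ± 0.10 for Acadvl and -0.47 ± 0.10 (SE) for Acads, and they shrank to -0.002 and -0.08 on log2(TPM + 1), where neither was called. The call of Acadvl in shPkm1 was lost under 5 of the 16 alternatives, among them the fit without the first shPkm1 library (-0.29).

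The 3 dehydrogenases of branched-chain amino acids each had a pattern of their own. Ivd, the leucine enzyme, was at 51.01 and 49.55 TPM in shScr, 27.63 and 30.27 TPM in shPkm1, and 43.17 and 41.09 TPM in the shPkm2-labelled libraries. The groups did not overlap, and shPkm1 was the lowest. The fitted log2 difference from shScr was -1.26 ± 0.11 (SE) in shPkm1, a 2.4-fold fall, and -0.75 ± 0.11 (SE) in the shPkm2-labelled libraries, a 1.68-fold fall whose call was lost on log2(TPM + 1) (-0.25). Ivd was higher in the shPkm2-labelled libraries than in shPkm1 by 0.51 ± 0.11 (SE), called under all 16 alternatives, as was the fall in shPkm1.

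Acadsb, which acts on isoleucine-derived and other short branched chains, was at 15.61 and 17.11 TPM in shScr, 29.31 and 25.38 TPM in shPkm1, and 23.54 and 20.31 TPM in the shPkm2-labelled libraries. It was the only member called higher in shPkm1 against shScr, by 0.35 ± 0.10 (log2, SE), a call lost without the first shPkm1 library (0.30). Its value in the shPkm2-labelled libraries was -0.03 ± 0.10 (SE) with TMM and 0.29 with library totals, where it was called higher, as on the FPKM and TPM scales, so no direction can be given there. Between the hairpin groups it was lower in the shPkm2-labelled libraries by -0.38 ± 0.10 (SE), a call that 6 of the 16 alternatives lost. Acad8, the valine enzyme, was called in none of the 3 comparisons, with 271 and 358 estimated counts in shScr, 282 and 313 in shPkm1 and 371 and 342 in the shPkm2-labelled libraries. Its log2 fold change was -0.28 ± 0.13 in shPkm1 and -0.15 ± 0.13 (SE) in the shPkm2-labelled libraries against shScr, and both turned positive on log2(TPM + 1), to 0.05 and 0.26. In shPkm1 it was called lower without the first shScr library, at -0.39, and was -0.155 and not called without the second.

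Acad9 was at 10.61 and 12.09 TPM in shScr, 12.91 and 13.88 TPM in shPkm1, and 18.41 and 16.45 TPM in the shPkm2-labelled libraries. It was not called against shScr in either hairpin group, with log2 fold changes of -0.16 ± 0.11 and 0.16 ± 0.11 (SE), of which the first turned to 0.22 on log2(TPM + 1). The second was called higher under 4 of the 16 alternatives, with 0.49 on library totals and 0.58 on log2(TPM + 1). It was higher in the shPkm2-labelled libraries than in shPkm1 by 0.33 ± 0.11 (SE), a call that 5 of the 16 alternatives lost. Acad11 had 295 and 371 estimated counts in shScr, 316 and 343 in shPkm1 and 283 and 278 in the shPkm2-labelled libraries. It was called lower in the last group, by -0.58 ± 0.12 (SE) against shScr and -0.36 ± 0.12 (SE) against shPkm1, and 4 and 9 of the 16 alternatives lost these calls. In shPkm1 it stood at -0.22 ± 0.12 (SE) against shScr and at 0.16 on log2(TPM + 1).

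Acad10 was the least abundant member, with 146 and 135 estimated counts in shScr, 99.8 and 112 in shPkm1 and 115 and 98.4 in the shPkm2-labelled libraries. It was called lower in both hairpin groups, by -0.62 ± 0.18 and -0.74 ± 0.18 (SE), calls that 4 and 2 of the 16 alternatives lost. Its neighbour and close relative Acad12 had 83 and 90.1 estimated counts in shScr, 54.2 and 77.9 in shPkm1 and 70.3 and 77.6 in the shPkm2-labelled libraries. The counting could split reads between these paralogues, so both are uncertain. Gcdh, the glutaryl-CoA dehydrogenase of lysine and tryptophan breakdown, had 953 and 493 estimated counts in shScr, 302 and 396 in shPkm1 and 281 and 312 in the shPkm2-labelled libraries. Its control libraries differed by more than its hairpin groups did from each other. Its log2 fold change was -1.28 ± 0.26 in shPkm1 and -1.64 ± 0.26 (SE) in the shPkm2-labelled libraries, and over the 16 alternatives it ranged from -1.74 to -0.62 and from -2.10 to -0.99. Gcdh overlaps Syce2.

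**Figure D3:**
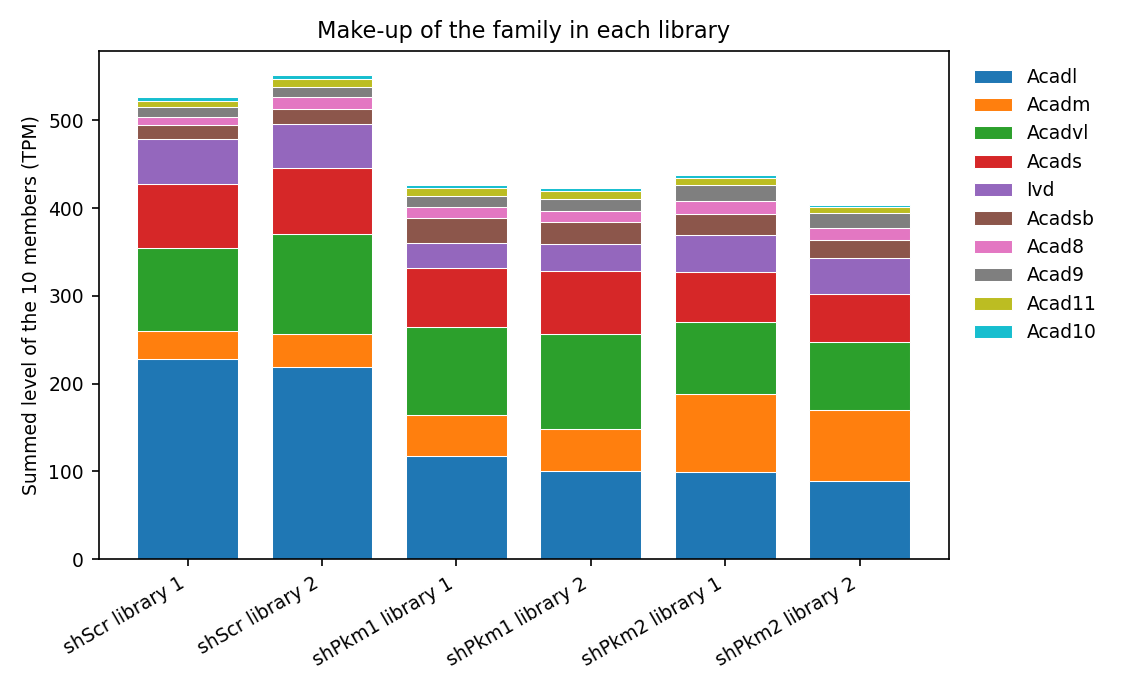
Summed level of the 10 members in each of the 6 libraries (vertical axis, TPM, from 0), with each gene as a coloured segment. The total is 526.4 and 551.8 TPM in shScr and 403.8 to 438 TPM in the hairpin libraries, and the segment of Acadl shrinks while that of Acadm grows from shScr to shPkm1 to the shPkm2-labelled libraries.

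The summed level of the family was lower in the hairpin groups, at 539.1 ± 18.01 TPM in shScr, 424.9 ± 2.8 TPM in shPkm1 and 420.9 ± 24.2 TPM in the shPkm2-labelled libraries (SD, n = 2 each). Without Acadl the sums were 315.3 ± 24.9, 315.5 ± 9.1 and 326.3 ± 17.1 TPM (SD, n = 2 each), which overlap on the TPM scale. That scale reads higher in the hairpin libraries than the TMM fold changes, on which Acads, Acadvl, Ivd and Acad10 were lower in both groups. Without Acadl and Acadm they were 280.9 ± 20.8, 268.6 ± 7.8 and 241.8 ± 11.5 TPM (SD, n = 2 each), and the shPkm2-labelled libraries (249.9 and 233.6 TPM) lay below shScr (266.2 and 295.6 TPM). The share of Acadl in the family went from 43.44% and 39.66% in shScr to 27.61% and 23.89% in shPkm1 and 22.75% and 22.18% in the shPkm2-labelled libraries. The share of Acadm went from 5.98% and 6.78% to 10.8% and 11.3% and to 20.19% and 19.96%. The genes of the 4 straight-chain enzymes together held 81.0% ± 0.3 of the TPM of the family in shScr, 77.8% ± 0.1 in shPkm1 and 74.7% ± 0.2 in the shPkm2-labelled libraries (SD, n = 2 each).

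Ratios between members within a library do not depend on the scaling of libraries. The ratio of Acadm to Acadl was 0.138 and 0.171 in shScr, 0.389 and 0.473 in shPkm1 and 0.887 and 0.900 in the shPkm2-labelled libraries. The groups thus stood apart, and the RNA of the medium-chain gene came close to the level of the long-chain one in the last group. The ratio of Acadvl to Acadl was 0.415 and 0.522 in shScr and lay between 0.824 and 1.07 in the 4 hairpin libraries, without a gap between the hairpin groups. The ratio of Acadsb to Ivd was 0.306 and 0.345 in shScr, 1.06 and 0.839 in shPkm1 and 0.545 and 0.494 in the shPkm2-labelled libraries. Among branched-chain enzymes the order of the hairpin groups was thus the reverse of that of Acadm to Acadl. These ratios use the values that chose the family and are descriptions.

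**Figure D4:**
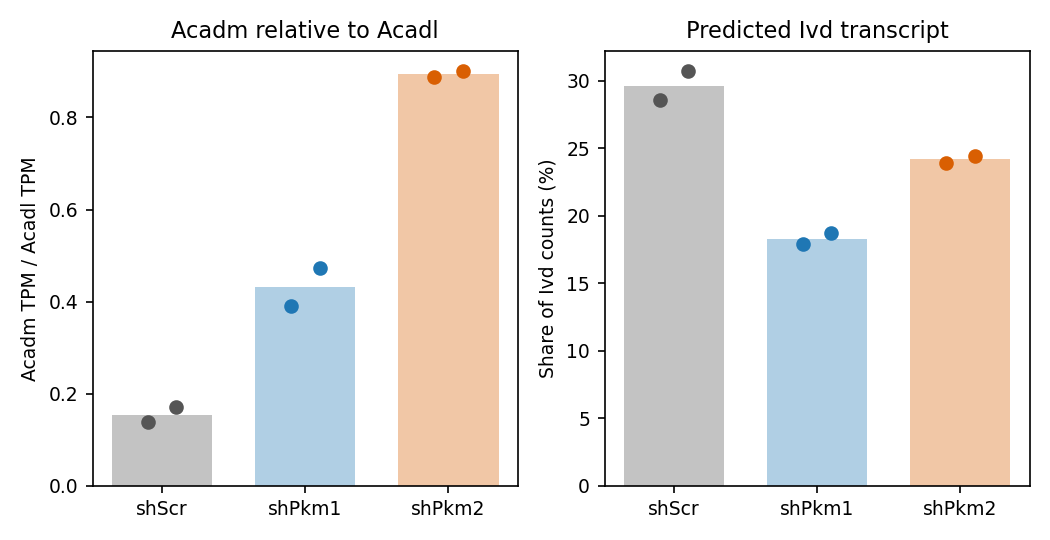
Left, ratio of the TPM of Acadm to that of Acadl; right, share of the estimated counts of Ivd assigned to its predicted transcript, in percent; points are the 2 libraries of a group and bars their mean, on axes from 0. The ratio is at most 0.171 in shScr and at least 0.887 in the shPkm2-labelled libraries, and the share is 28.6% and 30.7% in shScr, 17.9% and 18.7% in shPkm1 and 23.9% and 24.4% in the shPkm2-labelled libraries.

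The use of transcripts within a gene did not enter the choice of the family and was tested. Acadl, Acadm, Acads, Acadvl, Acadsb and Acad11 have 1 transcript each in the deposited table and could not be tested. Acad8 entered with 5 tested transcripts, Acad10 with 4, and Acad9 and Ivd with 2 each, and none of the 4 was called in any comparison (diffSpliceDGE in edgeR, adjusted over 7704 genes), where 3.88%, 6.70% and 3.92% of genes were called in shPkm1 against shScr, shPkm2 against shScr and shPkm2 against shPkm1. The predicted transcript of Ivd took 28.6% and 30.7% of the counts of the gene in shScr, 17.9% and 18.7% in shPkm1 and 23.9% and 24.4% in the shPkm2-labelled libraries. The groups did not overlap, and in shPkm1 against shScr its p was 0.012 before and 0.164 after adjustment in edgeR, with adjusted values from 0.0683 to 0.393 over the alternatives, so the difference was not called. In the other comparisons the adjusted p of Ivd in edgeR was 0.554 and 0.549. Acad9 kept 82.7% to 89.9% of its counts in its curated transcript in all 6 libraries. The curated transcript of Acad10 took 0% and 6.81% of the counts of the gene in shScr, 10.3% and 24.3% in shPkm1 and 42.2% and 53.7% in the shPkm2-labelled libraries. These shares rest on few counts, at most 9.18 of this transcript in a shScr library, and the adjusted p of the gene in edgeR was 0.978, 0.711 and 1 in the 3 comparisons. For Acad8 the libraries of a group assigned quite different shares to some transcripts, such as 7.46% and 20.2% to the same predicted transcript in shScr.

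The other genes of the pathway were taken from 7 lists, 67 genes in all, of which 62 were tested, and none of them was used to choose the family. The lists were themselves chosen with earlier results of these data known, and some genes were named after their values were seen. Their adjusted p-values are therefore no independent support. In shPkm1 against shScr 9 rose and 33 fell, a share of 67.7% called beside 63.1% of all genes. In the shPkm2-labelled libraries against shScr 6 rose and 36 fell, again 67.7%, beside 68.0% of all genes. Between the hairpin groups 6 were higher and 15 lower in the shPkm2-labelled libraries, 33.9% beside 53.0% of all genes, and this count of 21 dropped to 12 or 13 when any of the 4 hairpin libraries was left out. The numbers of rises and falls depended on scaling, for these genes as for all genes. With library totals 13 rose and 23 fell in shPkm1 and 13 rose and 25 fell in the shPkm2-labelled libraries. On log2(TPM + 1) 19 rose and 17 fell, and 18 rose and 20 fell. Of the calls over all genes, 50.3% and 49.8% were higher with TMM, 65.8% and 69.3% with library totals and 78.1% and 75.7% on log2(TPM + 1). The median log2 fold change of the 62 genes against shScr was -0.29 and -0.35 with TMM, where that of all genes was 0 and 0.007. On log2(TPM + 1) it changed sign, to 0.09 and 0.07, where that of all genes was 0.314 and 0.364. It thus lay below the median of all genes on both scales.

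**Figure D5:**
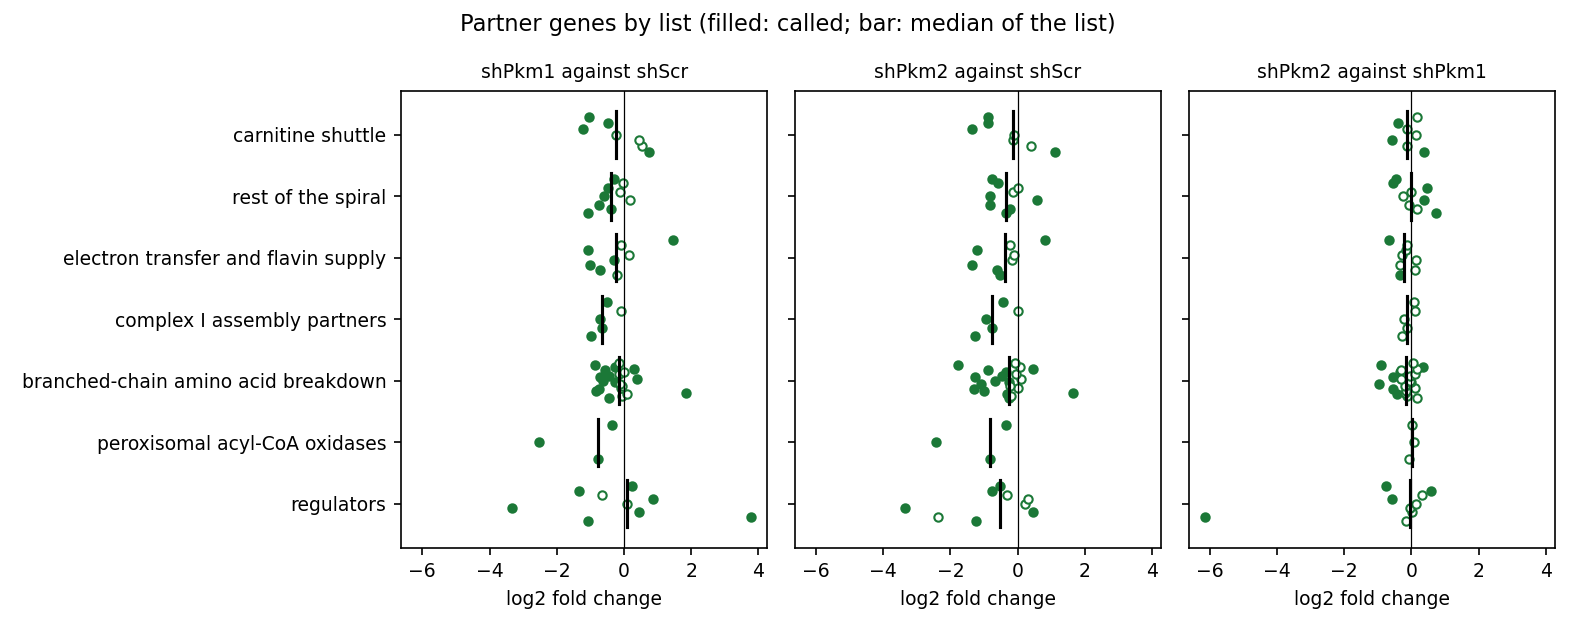
Log2 fold change (horizontal axes, TMM-scaled counts) of the 62 tested partner genes in 7 lists and 3 comparisons; filled points were called, open points were not, and black bars mark the median of each list. Medians against shScr lie left of 0 in both hairpin groups except for the regulators in shPkm1. Over all 62 genes the median turns to 0.09 and 0.07 on log2(TPM + 1), where that of all tested genes is 0.314 and 0.364.

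Of the carnitine shuttle, which brings long acyl chains into the mitochondrion, 1 of 7 genes rose and 3 fell in each hairpin group against shScr. The share called was 57.1% in each, beside 63.1% and 68.0% of all genes. Cpt1a, the gatekeeper enzyme of the outer membrane, had 740 and 1132 estimated counts in shScr, 1719 and 1860 in shPkm1 and 2585 and 2476 in the shPkm2-labelled libraries. It rose by 0.74 ± 0.13 in shPkm1 (log2, SE, adjusted p = 0.000225 in edgeR) and by 1.11 ± 0.13 in the shPkm2-labelled ones (log2, SE, adjusted p = 4.61e-06 in edgeR). Crat, the carnitine acetyltransferase, fell in both groups, by 1.22 and 1.36 on the log2 scale (adjusted p = 1.54e-06 and 3.15e-07 in edgeR). Slc25a20, the carnitine carrier of the inner membrane, also fell in both, by 1.05 and 0.88 on the log2 scale (adjusted p = 2.13e-05 and 6.41e-05 in edgeR). Slc22a5, the carnitine transporter of the plasma membrane, was the third gene to fall, by 0.48 and 0.88 on the log2 scale (adjusted p = 0.00922 and 0.000113 in edgeR), and 5 of the 16 alternatives lost the call in shPkm1.

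The steps of beta-oxidation that follow the dehydrogenases were represented by 9 genes, of which 0 rose and 6 fell in shPkm1 and 1 rose and 6 fell in the shPkm2-labelled libraries. The shares called were 66.7% and 77.8%, beside 63.1% and 68.0% of all genes (31.4% and 34.2% lower). Acaa2, the thiolase that ends a turn of the spiral, had 2634 and 2475 estimated counts in shScr, 1253 and 1554 in shPkm1 and 2583 and 2536 in the shPkm2-labelled libraries. It fell by 1.08 on the log2 scale in shPkm1 (adjusted p = 3.97e-06 in edgeR) and was higher in the shPkm2-labelled libraries than in shPkm1 by 0.74 ± 0.12 (SE, adjusted p = 0.000122 in edgeR). Against shScr it fell in the shPkm2-labelled libraries by 0.34 on the log2 scale (adjusted p = 0.0173 in edgeR), a call that 7 of the 16 alternatives lost, 1 of them with a change of direction. Ech1, an isomerase for unsaturated chains, fell in both groups, by 0.75 and 0.81 on the log2 scale (adjusted p = 2.06e-05 and 7.05e-06 in edgeR). Eci1, another isomerase, fell by 0.59 on the log2 scale in shPkm1 and by 0.83 in the shPkm2-labelled libraries (adjusted p = 0.000344 and 1.43e-05 in edgeR), the first call lost on log2(TPM + 1). Echs1, the short-chain hydratase, rose in the shPkm2-labelled libraries by 0.57 ± 0.10 (SE, adjusted p = 0.000219 in edgeR). Between the hairpin groups the subunits of the trifunctional protein were lower in the shPkm2-labelled libraries, Hadha by a log2 fold change of -0.54 and Hadhb by -0.47, while Hadh, the dehydrogenase for shorter chains, was higher by 0.48 (adjusted p = 0.000385, 0.00129 and 0.0017 in edgeR).

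The electron acceptors and the flavin supply of the dehydrogenases held 8 genes, of which 1 rose and 4 fell in each hairpin group against shScr. That is a share of 62.5% called in each, beside 63.1% and 68.0% of all genes. Slc25a32, which carries flavin adenine dinucleotide into mitochondria, had 177 and 199 estimated counts in shScr, 572 and 623 in shPkm1 and 425 and 405 in the shPkm2-labelled libraries. It rose by 1.46 ± 0.11 and 0.81 ± 0.12 (log2, SE, adjusted p = 2.32e-07 and 3.78e-05 in edgeR). Flad1, the enzyme that makes that cofactor, fell by 1.06 and 1.21 on the log2 scale (adjusted p = 6.7e-06 and 1.27e-06 in edgeR). Etfbkmt, a methyltransferase of the electron transfer flavoprotein, fell by 1.00 and 1.35 on the log2 scale (adjusted p = 0.0016 and 0.000153 in edgeR). Etfb, a subunit of that flavoprotein, fell by 0.73 and 0.63 on the log2 scale (adjusted p = 4.25e-05 and 0.00011 in edgeR), the second call lost on log2(TPM + 1). The last fall in shPkm1 was that of Etfdh, the ubiquinone oxidoreductase that takes the electrons on, by 0.30 on the log2 scale (adjusted p = 0.0182 in edgeR), a call that 7 of the 16 alternatives lost, 1 of them with a change of direction. In the shPkm2-labelled libraries it was that of the subunit gene Etfa, by 0.53 on the log2 scale (adjusted p = 0.000857 in edgeR), a call that 4 of the 16 alternatives lost. Etfa was lower in the shPkm2-labelled libraries than in shPkm1 by -0.33 ± 0.11 (SE, adjusted p = 0.0243 in edgeR), a call that 7 of the 16 alternatives lost.

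Of 5 tested genes whose products assemble complex I together with Acad9, 4 fell in each hairpin group and none rose, beside 63.1% and 68.0% of all genes called in either direction. Ecsit fell by 0.97 and 1.26 on the log2 scale (adjusted p = 3.15e-05 and 2.11e-06 in edgeR). Timmdc1 fell by 0.71 and 0.93 on the log2 scale (adjusted p = 0.000103 and 6.9e-06 in edgeR). Ndufaf1 fell by 0.64 and 0.78 on the log2 scale (adjusted p = 0.00217 and 0.000432 in edgeR), both calls lost on log2(TPM + 1). Tmem186 fell by 0.50 and 0.43 on the log2 scale (adjusted p = 0.00492 and 0.00923 in edgeR). Of the 16 alternatives 4 and 5 lost these calls of Tmem186, 1 of them with a change of direction in the shPkm2-labelled libraries. Between the hairpin groups 0 of the 5 were called in edgeR.

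Branched-chain amino acid breakdown, the pathway of Ivd, Acadsb and Acad8, held 21 genes, of which 3 rose and 10 fell in shPkm1 and 2 rose and 12 fell in the shPkm2-labelled libraries. The shares called, 61.9% and 66.7%, were near the 63.1% and 68.0% of all genes. Bcat1, the cytosolic aminotransferase, had 265 and 279 estimated counts in shScr, 1136 and 1099 in shPkm1 and 1120 and 1034 in the shPkm2-labelled libraries. It rose by 1.83 ± 0.11 and 1.65 ± 0.11 (log2, SE, adjusted p = 2.1e-08 and 2.29e-08 in edgeR), while Bcat2, the mitochondrial aminotransferase, fell by 0.84 and 1.00 on the log2 scale (adjusted p = 2.08e-05 and 2.8e-06 in edgeR). The other rises were those of Mmut, the methylmalonyl-CoA mutase, in both groups (0.30 and 0.45, adjusted p = 0.0277 and 0.0021 in edgeR), and of Hibch, a hydrolase of valine breakdown, in shPkm1 (0.40, adjusted p = 0.0204 in edgeR). Both rises in shPkm1 lost their call with DESeq2 and without the first shPkm1 library. Pccb, a subunit of propionyl-CoA carboxylase, had 1378 and 1451 estimated counts in shScr, 831 and 960 in shPkm1 and 510 and 533 in the shPkm2-labelled libraries. It fell by 0.87 and 1.78 on the log2 scale (adjusted p = 7.29e-06 and 6.51e-09 in edgeR). Bckdha, a subunit of the branched-chain ketoacid dehydrogenase upstream of all 3 acyl-CoA dehydrogenases, fell by 0.73 on the log2 scale in shPkm1 and by 1.29 in the shPkm2-labelled libraries (adjusted p = 0.000133 and 6.82e-07 in edgeR), the first call lost on log2(TPM + 1). Dbt, another subunit, was lower in the shPkm2-labelled libraries than in shPkm1 by -0.97 ± 0.14 (SE, adjusted p = 8.77e-05 in edgeR).

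The peroxisomal acyl-CoA oxidases carry out the same first step outside mitochondria and pass electrons to oxygen. Acox3 fell in both hairpin groups, by 0.37 and 0.34 on the log2 scale (adjusted p = 0.02 and 0.0245 in edgeR), and its direction turned on log2(TPM + 1), to 0.07 and 0.13. These calls were lost under 7 and 6 of the 16 alternatives, in both comparisons also without the second shScr library, and 3 alternatives turned the direction in the shPkm2-labelled libraries. Acox2, an oxidase of branched chains, was scarce, with 20 and 11 estimated counts in shScr, 3 and 3 in shPkm1 and 3 and 4 in the shPkm2-labelled libraries.

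Among 9 tested regulators of these genes, 4 rose and 3 fell in shPkm1, and 1 rose and 4 fell in the shPkm2-labelled libraries. These are shares of 77.8% and 55.6% called, beside 63.1% and 68.0% of all genes. Esrra, an estrogen-related receptor known to drive mitochondrial genes, had 1376 and 1413 estimated counts in shScr, 679 and 850 in shPkm1 and 716 and 772 in the shPkm2-labelled libraries. It fell by 1.08 and 1.24 on the log2 scale (adjusted p = 2.92e-06 and 4.74e-07 in edgeR). Ppargc1b, a coactivator of that receptor, fell by 1.35 on the log2 scale in shPkm1 (adjusted p = 6.88e-06 in edgeR) and by 0.78 in the shPkm2-labelled libraries (adjusted p = 0.000391 in edgeR), a call lost on log2(FPKM + 1), log2(FPKM + 0.1) and log2(TPM + 1). Pparg, a fatty acid receptor, rose in shPkm1 by 0.88 ± 0.24 (SE, adjusted p = 0.00641 in edgeR). Rxra, the partner receptor of the PPARs, was lower in the shPkm2-labelled libraries than in shPkm1 by -0.77 ± 0.10 (SE, adjusted p = 2.81e-05 in edgeR). Against shScr it rose by 0.25 on the log2 scale in shPkm1 and fell by 0.52 in the shPkm2-labelled libraries (adjusted p = 0.0466 and 0.00047 in edgeR), calls that 9 and 4 of the 16 alternatives lost. Nrip1, a corepressor of such genes, rose in both groups by 0.46 and 0.47 on the log2 scale (adjusted p = 0.00679 and 0.00549 in edgeR), calls lost without the first shPkm1 library and without the first shPkm2-labelled library respectively. Scarce regulators moved as well: Klf15 had 4 and 1 estimated counts in shScr, 37 and 45 in shPkm1 and 0 and 1 in the shPkm2-labelled libraries, and Perm1 had 60 and 63, 6 and 8, and 8 and 7.

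Genes with the pattern most like each member were found by the Euclidean distance of log2 CPM, centred on the shScr mean, over the 6 libraries and among 10715 genes. The nearest to Acadl were Tmem62 (distance 0.148) and Stk11ip (0.167), and the nearest to Acadm were Cdkn2c (0.109) and Hdac1 (0.114). Acads was nearest to Slc22a5 (0.0605) and to Mtif3 (0.064). Acadvl was nearest to Anapc7 (0.0909) and Ctsz (0.0967), Acadsb to Arl15 (0.0636) and Tmem218 (0.101), and Ivd to Ybx3 (0.178) and Atp5b (0.201), a subunit of the mitochondrial ATP synthase. Acad8 was nearest to Bicra and Sim2, Acad9 to Pcid2 and Kdm2b, Acad10 to Fam104a and Kcmf1, and Acad11 to Dennd1a and Nisch. The 6 libraries of 3 groups leave few patterns to tell genes apart.

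Markers of muscle cells moved with the groups in which the members differed. All 10 muscle markers were present, with summed levels of 21140 to 26900 TPM in shScr, 11110 to 11960 TPM in shPkm1 and 1193 to 1282 TPM in the shPkm2-labelled libraries, and none was at 0. Myog, the transcription factor of early differentiation, was at 2126 and 2051 TPM in shScr, 1430 and 1437 TPM in shPkm1 and 67.2 and 73.5 TPM in the shPkm2-labelled libraries, while Myf5, a myoblast factor, was higher in the last group by 1.74 ± 0.10 (log2, SE). This order of groups is also that of the share of Acadl in the family, downward, and of the ratio of Acadm to Acadl, upward, whereas Ivd and Acadsb were most displaced in shPkm1. In bulk samples fewer cells of a type and less RNA per cell cannot be told apart, and the part of differentiation in the members' levels was not tested.

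Of other cell types, 5 of 7 fat cell markers were in the table and summed to at most 0.2 TPM in any library, with all 5 at 3 or fewer counts. Liver markers, 2 of 3, summed to at most 0.11 TPM with Alb at 0 in every library, and the 4 endothelial markers to at most 0.41 TPM. The 5 bone and cartilage markers summed to at most 1.51 TPM with Ibsp at 0 throughout. The 5 fibroblast markers summed to 3.5 to 3.69 TPM in shScr, 22.3 to 23.8 TPM in shPkm1 and 10.71 to 12.07 TPM in the shPkm2-labelled libraries, with Lum at 0 in shScr, and Pdgfra was higher in both hairpin groups by 2.30 ± 0.15 and 2.46 ± 0.14 (log2, SE). In shPkm1 Dpt, Col15a1 and Pi16 were called higher too, while in the shPkm2-labelled libraries Col15a1 (-1.03 ± 0.38) and Pi16 (-0.87 ± 0.30, log2, SE) were called lower and Dpt was not called. The 2 macrophage markers of 4 in the table, Cd68 and Csf1r, summed to 0.82 to 1.72 TPM in shScr, 3.1 to 4.11 TPM in shPkm1 and 3.06 to 3.74 TPM in the shPkm2-labelled libraries. Both were called higher in shPkm1, and in the shPkm2-labelled libraries Cd68 was called higher (1.22 ± 0.37) and Csf1r lower (-1.81 ± 0.56, log2, SE). The part of these low fibroblast and macrophage levels in the members' values was not tested.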

How the data were processed

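RNA sequencing of 6 C2C12 libraries was used, 2 each labelled shScr, shPkm1 and shPkm2; groups and replicate numbers came from the titles. The deposited table gives 57920 RefSeq transcripts with, per the file headers, an estimated count, an FPKM and a TPM value per library. The deposited expected counts are unscaled estimates, not all whole. The deposited FPKM column is relative to transcript length and library size, and the deposited TPM column to length, with the same sum in every library. The submitters' processing notes name HISAT, StringTie, Bowtie, RSEM, DESeq2 and mm10, without versions or roles; strandedness, filters and read length are not given in the sources used here. The authors' 9 columns of means were not used, and 0 columns of single-library values were left out.

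Transcript counts were added up per gene (17558 genes) and rounded. A gene number table gave 17445 symbols; the 113 unmatched genes held at most 0.148% of a library. Libraries totalled 18216896 to 19796036 counts. Counting error weighs most on the lowest member, Acad10, which has about 100 counts and log2 standard errors of 0.18 against shScr. Genes were filtered with filterByExpr (minimum count 10, minimum total 15), scaled by TMM and tested over all 6 libraries with edgeR 4.0.16 (R 4.3.3), quasi-likelihood F-test, two-sided, Benjamini-Hochberg over 12643 genes, threshold 0.05. Standard errors were derived from the F statistic. Transcript usage was tested with diffSpliceDGE on 33433 transcripts of the same libraries. Both tests were tested on simulated counts, where the usage test called more unchanged genes than its threshold allows.

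The members and all lists (carnitine shuttle, rest of the spiral, electron transfer and flavin supply, complex I assembly, branched-chain breakdown, acyl-CoA oxidases, regulators, cell type markers) were chosen with earlier results of these data known. Named were all members, Gcdh, Acad12, Pkm, and per list and comparison up to 2 rises and 2 falls among calls with a mean of at least 50 counts; Slc22a5, Etfb, Etfdh, Ndufaf1, Tmem186, Mmut, Bcat2 (shPkm2 against shScr), Acox2, Klf15, Perm1 and the marker genes were named after their values were seen. A gene of the lists is not reported here. Likeness used log2 CPM of genes with such a mean. Promoters and positions are from RefSeq tables of GRCm38.p6. Alternatives were other scalings, filters, DESeq2 1.42.0, limma 3.58.1 on log2(FPKM + 1), log2(FPKM + 0.1) and log2(TPM + 1), pairwise fits, a replicate block, limma diffSplice, and leaving out each library.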

Additional observations from a re-analysis of the deposited data

How the results depend on the processing

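Over 16 alternatives, 480 values of the members' fold changes kept direction and side of the threshold in 409 cases, lost a call in 39, gained one in 15 and changed direction in 17. All reversals were in values that were not called as reported. In shPkm1 against shScr, Acad9 became 0.029 with library totals, 0.04 on log2(FPKM + 1), 0.044 on log2(FPKM + 0.1) and 0.223 on log2(TPM + 1). On log2(TPM + 1), Acad8 became 0.05 and Acad11 0.16, and leaving out each library in turn gave Acadm values from -0.005 (without the second shPkm1 library) to 0.139. In shPkm2 against shScr, in the same order of 4 scales, Acadsb became 0.292, 0.269, 0.289 and 0.399, each called higher, and from -0.099 to 0.037 (without the second shPkm2 library) when each library was left out, and Acad8 became 0.173, 0.135, 0.151 and 0.26. In shPkm2 against shPkm1, Acad10 became 0.008 with library totals. These scales shift the median of all genes, as given above; the cause of the other changes was not tested. Leaving out each library in turn, the members called ranged from 3 to 7 in shPkm1 against shScr and from 4 to 8 in shPkm2 against shPkm1, where log2(TPM + 1) gave 4, and partner genes called in the last comparison from 12 to 24. Genes with a change of transcript usage (299, 516 and 302 as reported, in the order shPkm1 against shScr, shPkm2 against shScr, shPkm2 against shPkm1) moved most. A mean of at least 50 counts gave 195 and 200 in the first and last, limma diffSplice 169 and 195, and leaving out each library gave 90 to 263, 221 to 396 and 110 to 254. Acad8 was then called without the second shPkm1 library (adjusted p = 0.0366 and 0.0355 in edgeR, against shScr and between the hairpin groups). Groups shared replicate numbers, and over the tested genes the replicate differences of the groups correlated at -0.0256, 0.0418 and 0.0527. Each group gives a single such difference, and a batch shared by same-numbered libraries was not tested. With the replicate block, usage calls were 89, 254 and 90, and Acadl was called between the hairpin groups. With 2 libraries a group, leaving 1 out rests the group on a lone library that is assumed to vary like the others, and Acad10 and Acad12, with about 100 counts or fewer, are the least precise.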
